A study of Mus musculus with 6 samples.

Results

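The genes described here make cholesterol and fatty acids, control that synthesis, or export cholesterol from the cell. They are 38 named genes, found by symbol among the 21139 genes of a count table, and all 38 were in it. Each was measured by RNA sequencing in 6 libraries of CD4+ T cells from the spleen of C57BL/6J mice. All cells were activated for 2 days with antibodies to CD3 and CD28, which engage the T cell receptor and its co-stimulator. The 3 medium libraries received no compound. The other 3 received CpdA, named in the series as an agonist of the fatty acid receptor Gpr120, at 20 µM (the unit is written as "µm" in the labels and read here as micromolar). The labels used here give neither the age and sex of the mice nor the vehicle in the medium group. They also do not say whether libraries came from separate animals or cultures, and the p-values therefore reflect spread between libraries that may be technical.

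Animal cells build cholesterol from acetyl-CoA through mevalonate and squalene, and build fatty acids from the same acetyl-CoA through malonyl-CoA. Both routes are switched on by SREBP transcription factors, which are held in the endoplasmic reticulum by SCAP and the INSIG proteins while sterols are plentiful and are released to the nucleus when sterols run low. SREBP2 (from Srebf2) acts mainly on sterol genes and SREBP1 (from Srebf1) mainly on fatty acid genes. The LXR receptors respond in the opposite case: they bind oxidised sterols and switch on the cholesterol exporters Abca1 and Abcg1, and also Srebf1. Activated T cells are known to raise lipid synthesis as they grow and divide.

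With CpdA, enzymes of cholesterol synthesis were modestly higher, the stearoyl-CoA desaturase genes Scd1 and Scd2 were lower, and the cholesterol exporters Abca1 and Abcg1 were lower by the most. Of the 38 members, all of which passed the filter on low counts, 11 rose and 10 fell at an adjusted p under 0.05 (edgeR quasi-likelihood test, Benjamini-Hochberg over all 13507 genes tested), or 55.3%. Among all genes tested 33.2% were called, 16.5% higher and 16.7% lower, and calls were thus common throughout these libraries. Of the 17 enzymes of the sterol route 8 rose and 0 fell, with a median log2 fold change of 0.10. Of the 12 fatty acid genes 2 rose and 4 fell, with a median of -0.09. LXR and its export targets fell in 3 of 3 cases, with a median of -0.61. The median over all genes tested was 0.00, with quartiles of -0.16 and 0.13. These groups were compared as counts and medians only, and the difference between them was not tested.

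**Figure D1:**
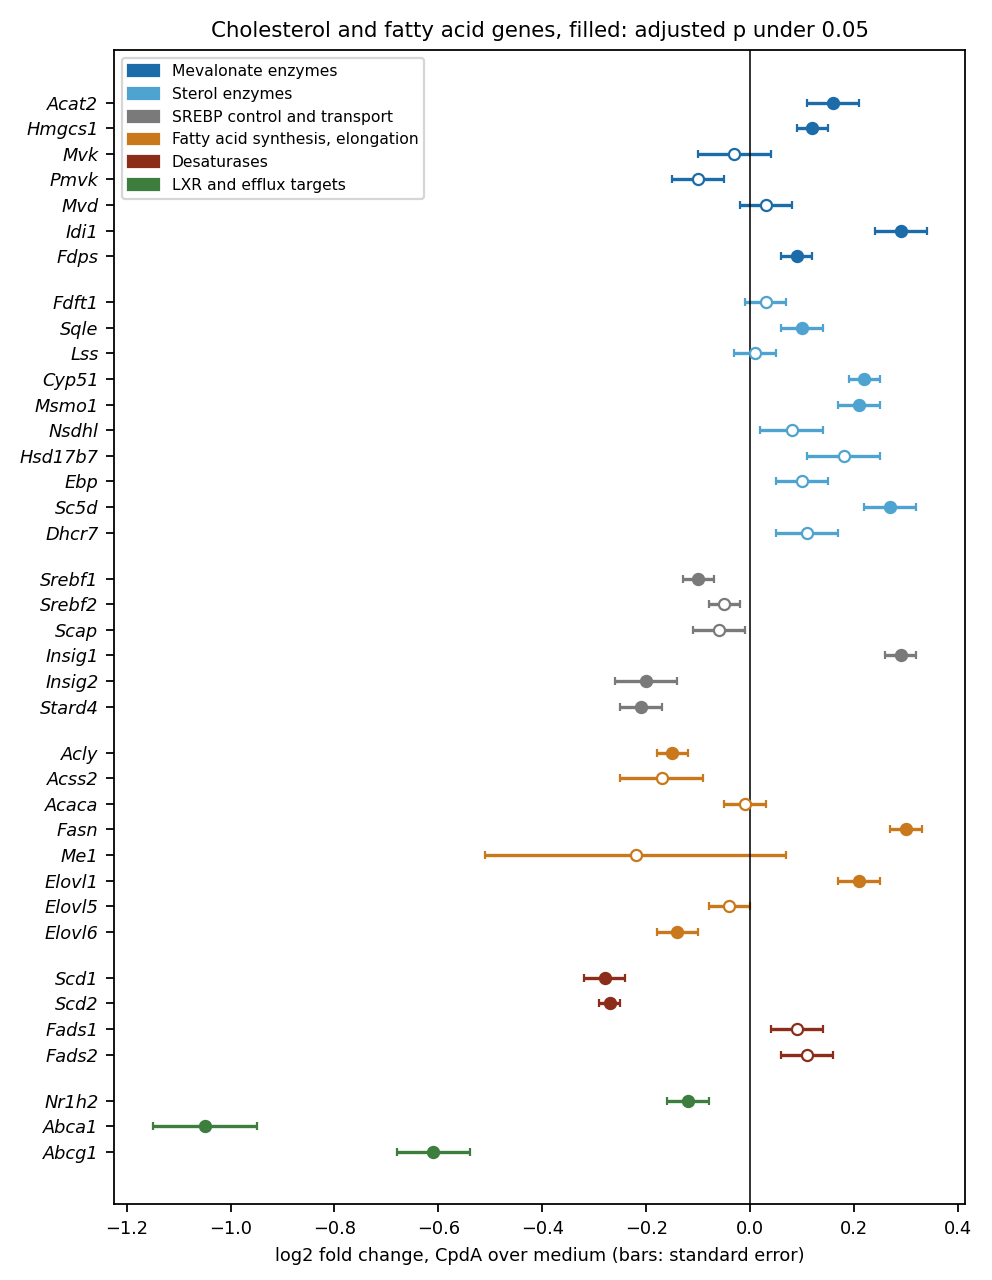
Log2 fold change of each of the 38 members, CpdA over medium (horizontal axis), by role group. Bars are standard errors derived from the F statistic of the edgeR fit on 3 against 3 libraries, and filled points passed an adjusted p of 0.05. Enzymes of the sterol route lie at or right of 0 except Mvk and Pmvk, and Abca1 (-1.05) and Abcg1 (-0.61) lie farthest left.

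The mevalonate arm runs from acetyl-CoA to farnesyl diphosphate, the branch point for sterols and for the lipid anchors of proteins. Of its 7 members 4 rose and 0 fell, with a median log2 fold change of 0.09. Idi1 (chromosome 13, 8885501 to 8892451, GRCm38, as for all positions here), the isomerase that supplies dimethylallyl diphosphate, had 42.7, 41.6 and 44.8 CPM (counts scaled to a common library total) in medium and 52.6, 54.3 and 51.9 CPM with CpdA. Every CpdA library was above every medium library, and the log2 fold change was 0.29 ± 0.05 (SE, edgeR adjusted p = 1.28e-05). Hmgcs1, the HMG-CoA synthase that precedes mevalonate, had 183.5, 189.3 and 191.8 CPM in medium and 207.4, 203.1 and 205.8 CPM with CpdA. Its groups did not overlap either, at a smaller log2 fold change of 0.12 ± 0.03 (SE, adjusted p = 0.00343).

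Acat2, the thiolase that starts the route, rose by 0.16 (adjusted p = 0.00923), with medium replicate 1 (56.5 CPM) below all other libraries (65.3 to 72.3 CPM). Without that library it was no longer called (log2 fold change 0.096, adjusted p = 0.15). Fdps, which makes farnesyl diphosphate, was the most abundant member of the arm per length, at 186.7 ± 3.5 FPKM (reads scaled by gene length and library total; SD, n = 3) in medium and 200.3 ± 5.1 FPKM with CpdA. It rose by 0.09 (adjusted p = 0.019), a call that was lost without CpdA replicate 1 (adjusted p = 0.0993) and without medium replicate 3 (0.116). The 3 genes whose enzymes act between mevalonate and Idi1 did not pass: the kinase genes Mvk and Pmvk had log2 fold changes of -0.03 and -0.10, and the decarboxylase gene Mvd 0.03.

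The sterol arm turns farnesyl diphosphate into squalene, lanosterol and then cholesterol. Of its 10 members 4 rose and 0 fell, and 10 of 10 had a positive log2 fold change, with a median of 0.11. Cyp51 (chromosome 5, 4081145 to 4104746), the demethylase that acts on lanosterol, had 184.6, 190.4 and 185.8 CPM in medium and 220.4, 214.1 and 224.3 CPM with CpdA. The groups lay well apart, with a log2 fold change of 0.22 ± 0.03 (SE, edgeR adjusted p = 3.06e-07). Msmo1, the oxidase that removes the next methyl groups, went from 75.4, 79.1 and 74.8 CPM to 88.4, 91.8 and 86.9 CPM. Its log2 fold change was 0.21, close to that of Cyp51. Sc5d, a desaturase of the sterol ring late in the route, had 46.1, 48.1 and 49.4 CPM in medium and 64.0, 55.3 and 55.8 CPM with CpdA (log2 fold change 0.27 ± 0.05, SE, adjusted p = 7.21e-05). CpdA replicate 1 was the highest of its libraries, and the groups did not overlap.

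Sqle, the squalene epoxidase that is a control point of the route, rose only slightly (log2 fold change 0.10, adjusted p = 0.0323). Its call was lost without medium replicate 3 (adjusted p = 0.173), without CpdA replicate 2 (0.0576), without CpdA replicate 3 (0.0937) and with DESeq2 (0.0566). Fdft1, the squalene synthase gene, and Lss, the lanosterol synthase gene, were at 0.03 and 0.01, and Ctsb, which overlaps 771 bases of Fdft1 on the other strand, was at -0.09. Nsdhl, Ebp and Dhcr7, later enzymes, had log2 fold changes of 0.08, 0.10 and 0.11 and did not pass. Hsd17b7, a ketoreductase, had 22.1, 21.1 and 19.2 CPM in medium against 21.6, 26.3 and 23.1 CPM, with an adjusted p of 0.0548. Its groups overlapped, and it passed without CpdA replicate 1 (0.0181), without medium replicate 1 (0.0346), with scaling by library size alone (0.0419) and with no count filter (0.0435). Dhcr7, the last enzyme of the route, passed without CpdA replicate 2 (0.0187) and without medium replicate 2 (0.0438).

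Over the 17 enzymes, the median deviation from the medium mean was 0.14, 0.11 and 0.13 (log2) in CpdA replicates 1, 2 and 3. The summed level went from 1428 ± 16.5 to 1559 ± 18.2 CPM (SD, n = 3). The groups were fully separated, in either direction, for 10 of the 17, against 43.9% of all genes tested. Among these 10 was Pmvk, whose CpdA libraries (50.2, 50.5 and 47.2 CPM) lay below its medium libraries (50.9, 53.3 and 53.7 CPM).

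**Figure D2:**
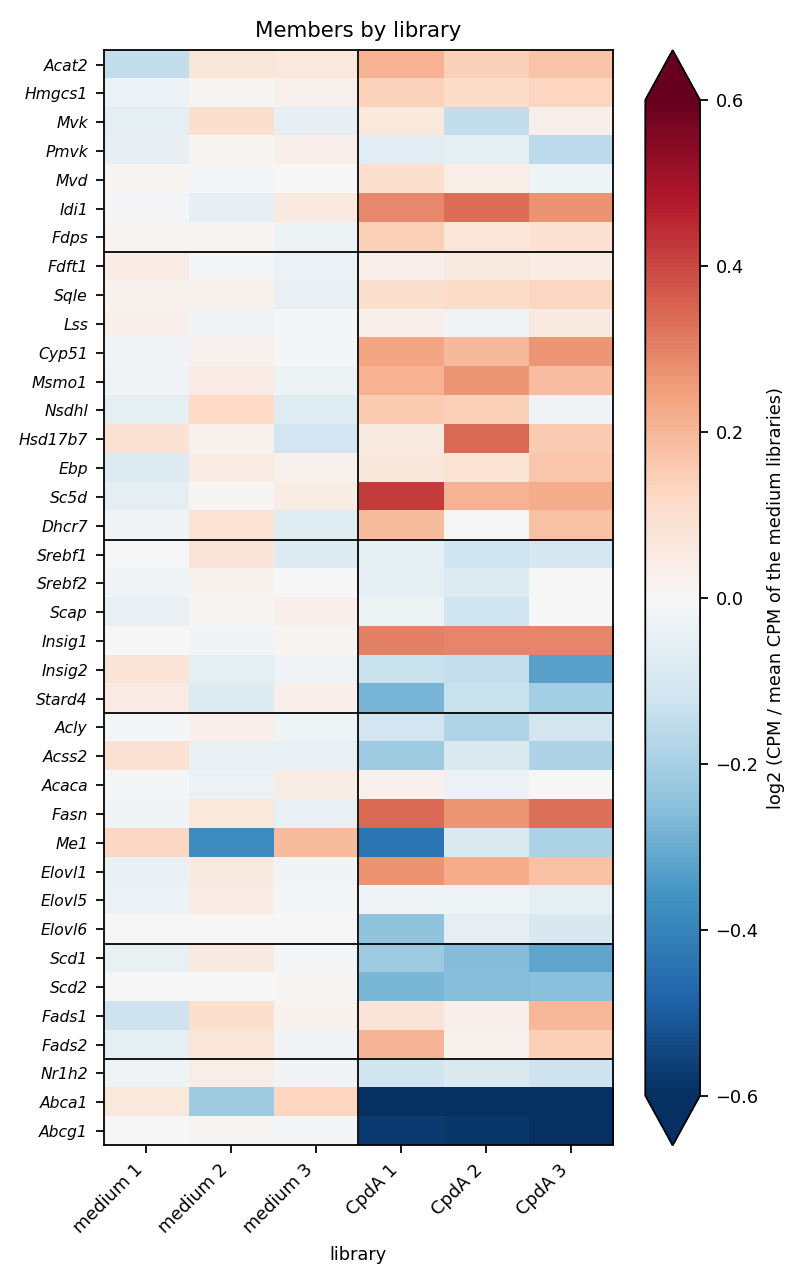
Each row is a member and each column a library; colour gives log2 of CPM over the mean CPM of the medium libraries, and colours saturate at 0.6 in both directions. Rows are in the order of the role groups, and the CpdA columns are red for Idi1, Cyp51, Msmo1, Sc5d, Insig1 and Fasn and blue for Scd1, Scd2, Abca1 and Abcg1.

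Promoter sequence of these genes was read from RefSeq (GRCm38.p6), in the 250 bases before each annotated start; 30 of the 38 members had such a window. The stretches of Hmgcs1, Cyp51 and Srebf2 below are shown because they hold the letters of an element through which SREBP is known to act, the sterol regulatory element (SRE); that of Insig1 is shown for its E-box and holds no match to either SRE form. Capitals mark a match to TCACNCCAC or its shortened form TCACCNCA, to the NF-Y box CCAAT (written ATTGG on the other strand), or, in Insig1, to the E-box CACGTG; each was searched on both strands, and the shortened form, which overlaps the first, was chosen after the promoters had been read.
Hmgcs1 (chr13:119690167-119690242, plus strand): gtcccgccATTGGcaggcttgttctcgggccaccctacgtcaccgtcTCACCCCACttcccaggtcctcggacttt
Cyp51 (chr5:4104758-4104805, minus strand): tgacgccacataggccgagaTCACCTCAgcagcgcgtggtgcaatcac
Srebf2 (chr15:82147087-82147146, plus strand): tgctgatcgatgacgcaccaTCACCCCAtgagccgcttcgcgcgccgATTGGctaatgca
Insig1 (chr5:28071291-28071336, plus strand): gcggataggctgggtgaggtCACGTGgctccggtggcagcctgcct
All of these stretches lie outside annotated exons, upstream of their genes.

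TCACNCCAC was found in 1 of the 30 members, Hmgcs1, and in 1.05% of all 32851 promoter windows (1.27% of tested genes with one). The shortened form was found in 5 members, Hmgcs1, Cyp51, Hsd17b7, Srebf2 and Elovl5, and in 3.61% of windows (4.34% of tested genes with one). Of these 5, Hmgcs1 and Cyp51 rose and the other 3 did not pass. The NF-Y box was held by 22 of the 30 members, against 40.4% of the 9503 tested genes with a window. Of the 14 sterol-route enzymes with a window, 13 held it. CACGTG was held by 7 of the 30 members and 3 of those 14 enzymes, against 9.87% of those tested genes. The GC box GGGCGG was also searched. It was held by 24 of the 30 members and 13 of those 14 enzymes, against 63.7% of those tested genes and 32.7% of windows. Matches of letters are a description and do not show that a factor bound there.

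The control genes of the pathway did not move as one. Insig1 (chromosome 5, 28071363 to 28078662), which is itself a known SREBP target, had 122.5, 121.0 and 124.0 CPM in medium and 151.2, 150.1 and 150.0 CPM with CpdA. Replicates agreed closely within each group, and the log2 fold change was 0.29 ± 0.03 (SE, edgeR adjusted p = 6.17e-09). Insig2, its paralogue with the same retaining function, had 45.2, 41.1 and 42.2 CPM in medium and 39.1, 38.8 and 34.2 CPM with CpdA. Every CpdA library was below every medium library, and Insig2 fell by 0.20 on the log2 scale (adjusted p = 0.00468). That call was lost without CpdA replicate 3, the lowest library (log2 fold change -0.14, adjusted p = 0.0904).

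Within each library, the ratio of Insig1 to Insig2 per length (FPKM) was 2.71, 2.94 and 2.94 in medium and 3.86, 3.87 and 4.38 with CpdA. The log2 count ratio thus differed by 0.49, from 1.52 ± 0.07 to 2.01 ± 0.10 (SD, n = 3; exact two-sided permutation p = 0.1, the smallest that 3 against 3 allows, and 0.4 adjusted over 4 ratios). This measure needs no scaling between libraries, and all CpdA libraries were above all medium libraries.

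Of the transcripts of the SREBPs themselves, that of Srebf2 did not pass and that of Srebf1 fell slightly. Srebf2 was at 89.0 FPKM in medium and 86.3 with CpdA, a log2 difference of -0.05 (adjusted p = 0.149). Srebf1 had 189.3, 199.6 and 179.4 CPM in medium and 181.7, 174.3 and 176.8 CPM with CpdA. Its groups overlapped, and its log2 fold change of -0.10 (adjusted p = 0.018) missed the threshold without medium replicate 2 (adjusted p = 0.189), CpdA replicate 2 (0.0767) or CpdA replicate 3 (0.0773) and with DESeq2 (0.0552). Scap, the escort of the SREBPs, was at -0.06 (adjusted p = 0.327). The count ratio of Srebf1 to Srebf2 differed by -0.05 (log2; exact permutation p = 0.4, two-sided). SREBP activity is set mainly by protein cleavage, which RNA counts do not measure.

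Stard4 went the other way from the enzymes. It codes for a soluble carrier of cholesterol between membranes and is a known SREBP2 target. Its levels were 230.8, 210.9 and 227.7 CPM in medium and 183.7, 203.5 and 193.9 CPM with CpdA. The groups did not overlap, and it fell by 0.21 on the log2 scale (adjusted p = 1.74e-05).

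**Figure D3:**
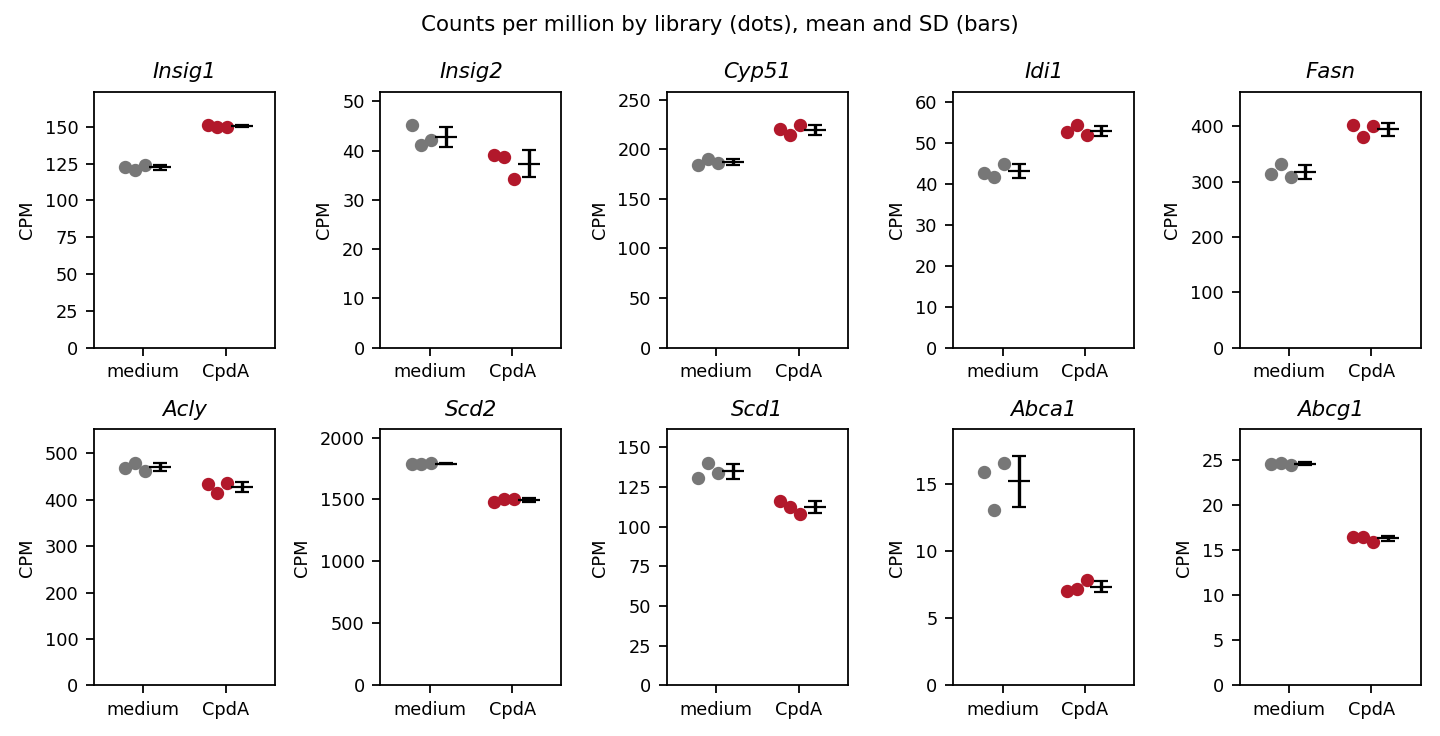
CPM in each library (dots, 3 medium and 3 CpdA) with the mean and SD beside them, for 10 called members picked for display. Each vertical axis starts at 0. Groups do not overlap in any of the 10 panels, against 23 of all 38 members and 43.9% of all genes tested. Insig1, Cyp51, Idi1 and Fasn are higher with CpdA, and Insig2, Acly, Scd2, Scd1, Abca1 and Abcg1 are lower.

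The fatty acid genes split at neighbouring steps. Of the 8 genes of synthesis and elongation 2 rose and 2 fell, with a median log2 fold change of -0.09. Acly, which makes cytosolic acetyl-CoA from citrate for both routes, had 468.3, 479.9 and 462.3 CPM in medium and 433.5, 415.2 and 435.4 CPM with CpdA. It fell by 0.15 on the log2 scale (edgeR adjusted p = 8.11e-05), and its groups did not overlap. Acss2, which makes acetyl-CoA from acetate, had -0.17 (adjusted p = 0.0991) from a low level of 18.0 CPM. Several annotated genes overlap it, among them Gss (22544 bases) and an antisense gene (9891 bases) on the opposite strand, and strand was not stated. Acaca, the carboxylase that commits acetyl-CoA to fatty acids, had -0.01 (adjusted p = 0.809).

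Fasn (chromosome 11, 120805940 to 120824178), the synthase that builds palmitate, had 313.9, 332.0 and 307.9 CPM in medium and 402.1, 381.5 and 400.1 CPM with CpdA. The lowest CpdA library was above the highest medium library, and the log2 fold change of 0.30 ± 0.03 (SE, adjusted p = 2.18e-10) was the highest of the 38 members. Me1, a malic enzyme that supplies NADPH, was at 1.27 CPM in medium, and its change (-0.22 ± 0.29, SE) was not detectable at this depth.

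The elongases, which lengthen fatty acids made by Fasn or taken up, also differed. Elovl1, which makes very long saturated chains, rose from 59.6, 63.7 and 60.7 CPM to 73.9, 71.5 and 69.2 CPM (log2 fold change 0.21, adjusted p = 2.65e-04). Its gene overlaps the mitosis gene Cdc20 by 53 bases on the opposite strand, and Cdc20 rose by 0.18 (adjusted p = 0.00327). The strand setting was not stated, so whether reads of the overlap were told apart is not known. Elovl6, which lengthens palmitate to stearate, had 85.6, 85.3 and 85.7 CPM in medium and 72.3, 82.0 and 79.9 CPM with CpdA. It fell by 0.14 on the log2 scale (adjusted p = 0.0112), a call that rested on CpdA replicate 1: without it the log2 fold change was -0.088 (adjusted p = 0.139). Elovl5, which acts on polyunsaturated chains, had -0.04 (adjusted p = 0.417).

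Desaturases put double bonds into fatty acids, Scd1 and Scd2 into saturated chains such as stearate and Fads1 and Fads2 into polyunsaturated ones. Of these 4 genes 2 fell and 0 rose. Scd2 (chromosome 19, 44293676 to 44306864) was the most abundant of all members, at 328.3 FPKM in medium and 274.3 FPKM with CpdA. In counts it had 1786, 1789 and 1797 CPM in medium and 1482, 1501 and 1505 CPM with CpdA. The 2 groups were separated by many times the spread within either, with a log2 fold change of -0.27 ± 0.02 (SE, edgeR adjusted p = 1.2e-11). Scd1 (chromosome 19, 44394451 to 44407709) had 130.8, 140.4 and 134.0 CPM in medium and 116.0, 112.7 and 108.3 CPM with CpdA, and its groups did not overlap. It fell by nearly the same amount (log2 fold change -0.28 ± 0.04, SE, adjusted p = 1.17e-07).

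The count ratio of Scd1 to Scd2 was -3.73 ± 0.05 in medium and -3.74 ± 0.06 with CpdA (log2, SD, n = 3; exact permutation p = 0.9, two-sided). These genes are close copies on chromosome 19 and may share reads, in which case the far more abundant Scd2 would weigh on Scd1. Fads1 and Fads2, neighbours on the same chromosome, were at 0.09 and 0.11 on that scale (adjusted p = 0.207 and 0.101), and their groups overlapped. Fads2 passed without CpdA replicate 2 (adjusted p = 0.0228) and without medium replicate 2 (0.0461). The summed level of the 4 desaturases went from 2018 to 1708 CPM, of which Scd2 made up most.

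**Figure D4:**
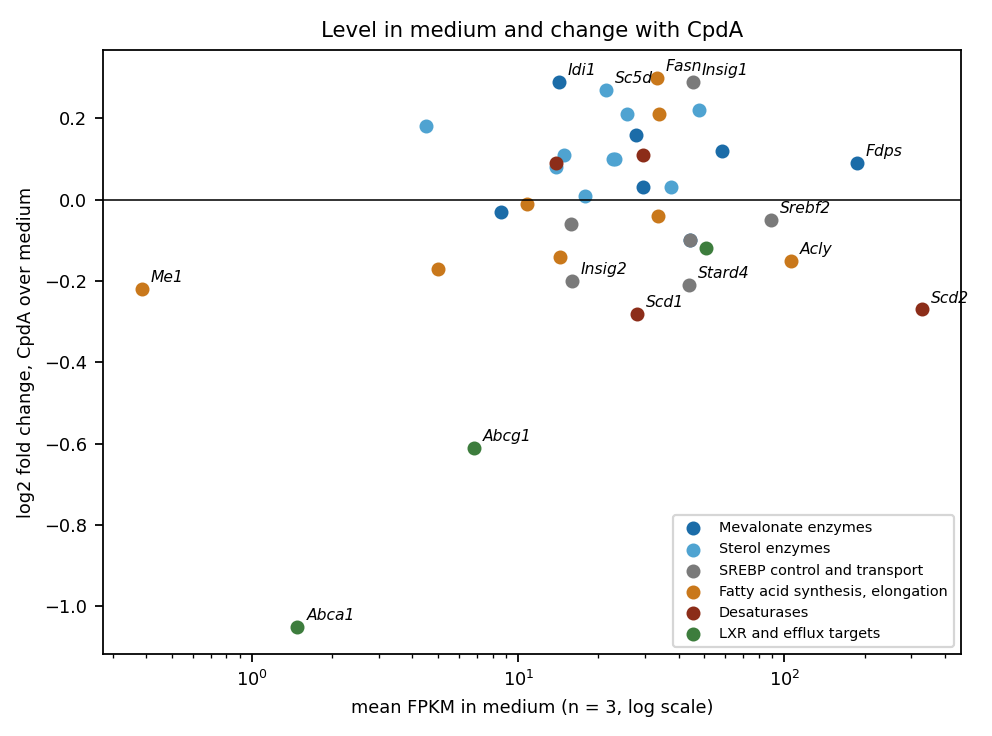
Mean FPKM in the 3 medium libraries (horizontal, log scale) against the log2 fold change with CpdA (vertical) for the 38 members, coloured by role group. Scd2 has the highest level (328.3 FPKM) and a change of -0.27, whereas Abca1 (1.48 FPKM) and Abcg1 (6.81 FPKM) are low genes with the lowest fold changes.

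The exporters fell furthest. Abca1 (chromosome 4, 53030787 to 53159895), which loads cholesterol onto lipid-poor apolipoprotein, had 15.9, 13.1 and 16.6 CPM in medium and 7.01, 7.21 and 7.82 CPM with CpdA. Its highest CpdA value was well below its lowest medium value, and the log2 fold change was -1.05 ± 0.10 (SE, edgeR adjusted p = 6.16e-11). Abcg1 (chromosome 17, 31057698 to 31115777), which exports cholesterol to lipoprotein particles, had 24.6, 24.7 and 24.5 CPM in medium and 16.5, 16.4 and 15.9 CPM with CpdA. Replicates lay close together, and the log2 fold change was -0.61 ± 0.07 (SE, adjusted p = 4.71e-09). Among all called genes 89.1% changed by less than 1.5-fold, and both exporters changed by more than that.

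Nr1h2, which codes for LXR beta, went from 99.7, 104.2 and 100.1 CPM to 93.3, 95.4 and 92.9 CPM. It fell by 0.12 on the log2 scale (adjusted p = 0.0133), a call lost without CpdA replicate 3 (0.0712) or medium replicate 2 (0.0715). Nr1h3, which codes for LXR alpha, had 7, 6 and 8 reads in medium and 8, 13 and 16 with CpdA and was too low to test. Of 9 tested genes of a further LXR list, 2 rose and 1 fell. The receptor partner Rxra rose by 0.36 and Lpcat3, a phospholipid-remodelling enzyme, by 0.12 (adjusted p = 0.0292), while Arl4c, a small GTPase that LXR is known to induce, fell by 0.31.

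Macrophages express both exporters strongly, so their markers are given beside this result. The 8 macrophage and monocyte markers summed to 5.37 to 6.47 CPM in medium and 4.55 to 4.76 CPM with CpdA, mostly Cd68. Both testable markers, Cd68 and Itgam, fell (log2 fold changes -0.38 and -1.18). Itgam had few reads, 11, 11 and 20 in medium and 6, 8 and 6 with CpdA (SE 0.46, edgeR adjusted p = 0.0424). The defining markers Adgre1, Csf1r, Lyz2, Mertk, Cd14 and Marco had at most 5 reads in any library and were too low to test. Their reads went in no common direction. Adgre1 had 1, 0 and 1 reads in medium and 1, 4 and 2 with CpdA, and Mertk 3, 2 and 5 against 2, 1 and 2. The part of these cells in the fall of the exporters was not tested. In bulk RNA, fewer cells with a transcript and less of it per cell cannot be told apart.

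The next stretches are shown because 3 members share the letters of a relaxed LXR response element, although they did not move alike. The strict form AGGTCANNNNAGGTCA was in 0 of the 30 member windows and in 0.0152% of all windows. A looser form, AGGTNANNNNNGGTCA, was tried next and was also in 0 member windows (26 of 32851 windows in all). The relaxed form GGTNANNNNNGGTCA was chosen after both of these had matched no member and the promoters had been read; it was in the windows of Abca1, Srebf1 and Fasn and in 0.177% of all windows (0.158% of tested genes with one). Capitals mark the match, which lies on the strand opposite to the gene in each case.
Abca1 (chr4:53159928-53159982, minus strand): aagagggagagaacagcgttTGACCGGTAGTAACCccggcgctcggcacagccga
Fasn (chr11:120824738-120824792, minus strand): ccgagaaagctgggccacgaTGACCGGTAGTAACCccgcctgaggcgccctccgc
Srebf1 (chr11:60210619-60210673, minus strand): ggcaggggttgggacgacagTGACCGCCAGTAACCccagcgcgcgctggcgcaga
The stretches of Abca1 and Fasn lie upstream of their genes, and the matched letters are identical in both. The Srebf1 stretch lies inside the gene, outside annotated exons, before a start that RefSeq places 12110 bases within it. Abca1 changed by -1.05, Srebf1 by -0.10 and Fasn by 0.30.

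Other genes of the same pathways were counted in 5 lists. Of 20 tested genes of cholesterol synthesis, uptake and storage outside the 38, 5 rose and 5 fell. Among those that rose, Lbr, a sterol reductase of the nuclear membrane, was higher by 0.16 on the log2 scale and Soat2, which esterifies cholesterol, by 0.19. Soat1, the other esterifying enzyme, fell by 0.31, Vldlr, a lipoprotein receptor, by 0.45 and Gramd1a, which carries plasma membrane cholesterol inward, by 0.26.

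Of 12 genes that process or degrade the sterol sensors 4 rose and 1 fell. Erlin1 rose by 0.30 and Syvn1 by 0.16, both parts of degradation in the endoplasmic reticulum, and Lpin1, a phosphatidate phosphatase that also restrains SREBP, fell by 0.38. In the isoprenoid branch, which uses farnesyl diphosphate for protein anchors and ubiquinone, 6 of 14 rose and 1 fell. Rabggtb and Zmpste24, of protein prenylation, rose by 0.22 and 0.25 and Coq2, of ubiquinone synthesis, by 0.24, while Rabggta, the partner subunit of Rabggtb, fell by 0.14.

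Of 29 further tested genes of fatty acid synthesis, activation and use, 6 rose and 6 fell. The activating enzymes Acsl5 and Acsl4 rose by 0.20 and 0.09 and the transcription factor gene Mlx by 0.22. Dgat1 and Dgat2, which catalyse the last step of triglyceride synthesis, fell by 0.43 and 0.56 and Gpam, which catalyses the first, by 0.35. With the 9 tested genes of the LXR list, where 2 rose and 1 fell, each of the 5 lists had at least 33.3% of its tested genes called, against 33.2% of all genes tested.

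Library totals ran from 20247761 to 25952169 counts, and libraries differed less within groups than between them (chi-square per degree of freedom at most 4.18 within and at least 10.76 between). Of 8 CD4 T cell markers 6 fell, by 0.12 to 0.27 on the log2 scale, and 1 rose. Their sum was 2112 to 2153 CPM in medium and 2029 to 2059 CPM with CpdA (exact permutation p = 0.1, two-sided). Falls of members of this size therefore stand beside falls of T cell genes, and the relation between them was not tested. B cell markers summed to 28.3 to 36 CPM and 30.2 to 35.9 CPM, and CD8 T cell markers to 7.99 to 8.84 CPM and 7.33 to 9.40 CPM. Dendritic cell markers summed to 6.12 to 6.67 CPM in medium and 6.86 to 8.22 CPM with CpdA, and erythroid markers to 1.28 to 1.65 CPM and 0.694 to 1.11 CPM. The NK, stromal and neutrophil lists, whose groups overlapped, summed to between 1.81 and 6.52 CPM.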

How the data were processed

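Read counts per gene were deposited by the authors without normalization, per the file headers, together with FPKM values that the authors computed; count over gene length and library total gave those values back (largest relative difference 1.86e-07). CASAVA 1.8 and the builds GRCm38 and mm10 are named in the submitters' processing notes. The aligner, counter, annotation and strand setting were not stated in those notes as used here. Of the identifiers, 20917 of 21139 were found in GENCODE M21.

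Counts were tested in R 4.3.3 with the quasi-likelihood test of edgeR 4.0.16 (TMM scaling, robust dispersions, filterByExpr with a minimum count of 10 and a minimum total of 15, no covariates), CpdA over medium, over all 13507 genes kept. Standard errors were derived as the absolute log2 fold change divided by the square root of the F statistic of that test. CPM is scaled by the library total. At the lowest depth, 0 counts leave room for 0.148 CPM (3 counts, counting error only). Ratios of paralogues were taken within libraries with 0.5 added to each count and compared by exact permutation. Each pair of libraries within a group differed by more than sampling noise (chi-square per degree of freedom 2.18 to 4.18). Alternatives were other scalings, DESeq2 1.42.0, limma-voom (limma 3.58.1), other filters, a replicate block and each library left out.

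The test was tried on simulated counts for CpdA against medium (13508 genes). It recovered 60.9% of 1.25-fold, 79.1% of 1.5-fold and 87.9% of 2-fold changes and called 8 of 13311 genes left unchanged. Only 64, 67 and 66 tested genes were changed by these sizes, against 33.2% of all genes called in the data. The highest rise of a member, that of Fasn, was 1.23-fold, below the smallest size simulated. These rates therefore do not give the share of member changes that was detected. The members, role groups and lists were chosen with earlier results of these data known. Of the 95 further pathway genes 93 were matched, and of the 48 markers 44, with 5 of these found under an older symbol. All members are named; of the other lists, up to 3 called genes with the smallest p in each direction are named, plus Nr1h3; some genes that this rule takes in are not reported here. The markers and overlapping genes named were chosen after their values were seen.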

Additional observations from a re-analysis of the deposited data

How the results depend on the processing

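Of the 21 members called, 14 kept their call and direction in each of 13 alternatives, 7 (Acat2, Fdps, Sqle, Srebf1, Insig2, Elovl6 and Nr1h2) lost it in at least 1, and 0 changed direction. The calls of Cyp51, Msmo1, Sc5d, Idi1, Insig1, Fasn, Acly, Scd1, Scd2, Abca1 and Abcg1 are among those kept. With 1 library left out, fallen members of the control group numbered 1 to 3, fallen members of synthesis and elongation 1 to 2 and risen desaturases 0 to 1; the lowest counts came without CpdA replicate 3 and CpdA replicate 1, and the desaturase was Fads2. Members near 0 changed sign in those fits: log2 fold changes ran from -0.065 to 0.037 for Mvk, from -0.002 to 0.061 for Mvd, from -0.002 to 0.034 for Lss and from -0.032 to 0.011 for Acaca. The ratio differences ran from -0.04 to 0.02 for Scd1 to Scd2 and from -0.06 to 0.03 for Fads1 to Fads2. Same-numbered libraries did not deviate together (correlations -0.094, -0.166 and -0.036), so the numbers were not taken as pairs; with a replicate block 1927 genes rose and 2009 fell, against 2231 and 2252, and Fdps (adjusted p = 0.0618), Sqle (0.08) and Srebf1 (0.052) missed the threshold. Under each scaling and tool the median of the sterol enzymes was 0.10 or 0.11 and that of all genes between -0.011 and 0.010. Depth limits Me1 and Nr1h3.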
